A study of Homo sapiens with 12 samples.

Results

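The linker histone H1 genes were followed in HUDEP-2 cells, an immortalised human erythroid progenitor line of adult type, with and without the methyl-DNA-binding protein MBD2. The group comprised 6 genes of the 60483 in the deposited table, chosen by name and joined by Ensembl identifier: H1FX, HIST1H1A, HIST1H1B, HIST1H1C, HIST1H1D and HIST1H1E. Of these, 5 passed the filter on low counts and were among the 17175 genes tested, and HIST1H1A did not pass. The study compared 4 groups of 3 RNA-seq libraries each: MBD2-/- cells after erythroid differentiation (knockout after), control cells after differentiation (control after), MBD2-/- cells before differentiation (knockout before) and control cells before differentiation (control before). Control cells had received a scrambled guide RNA and carry the genotype label WT. Cells before differentiation were labelled early basophilic erythroblasts and grew in SFEM with SCF, EPO, DEX, DOX and L-Glu. Cells after differentiation were labelled late basophilic erythroblasts and grew in IMDM with insulin, heparin, HTF, EPO, DOX, L-Glu and human AB serum. EPO, DOX and L-Glu were thus shared by every group, while the stage of the cells and their medium changed together and cannot be told apart. The labels give the length of differentiation as 5 days in the growth protocol and as 3 days in the RNA extraction protocol. They do not say whether the knockout cells were 1 clone, nor whether the 3 libraries of a group came from separate cultures, so p-values measure the spread between these libraries, which may be technical.

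Linker histones bind the DNA that enters and leaves the nucleosome and help to fold chromatin. The HIST1H1 genes are replication-dependent: their mRNAs are made mainly in S phase and typically end in a conserved stem-loop in place of a poly(A) tail. H1FX, which encodes H1.10, gives a polyadenylated mRNA whose supply is not tied to DNA replication. MBD2 binds methylated CpG pairs and recruits the NuRD co-repressor complex.

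The libraries were made from total RNA after removal of ribosomal and globin RNA, per the labels, with no poly(A) selection stated, so that both kinds of transcript could be counted. The difference between the kinds can be seen in the last 30 bases of 2 GENCODE 29 transcripts (GRCh38). They are shown because the groups of genes described below are sorted in part by their usual kind of 3′ end. Capitals mark the polyadenylation signal AATAAA in the H1FX end (chr3:129314771-129314800, - strand), and GGCTCTT, the 5′ arm and first loop base of the histone stem-loop, in the HIST1H1E end (chr6:26157078-26157107, + strand), where the annotated transcript stops within the 3′ arm.
H1FX: ttgggcacAATAAAgcgtttaaacctttca
HIST1H1E: gcccaacacaacccaaaGGCTCTTttcaga
Read on the transcript's strand, AATAAA was found in the last 30 bases of 30.6% of 83129 protein-coding GENCODE 29 transcripts, and GGCTCTT in 0.119% of them.

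The promoters of 6 members were matched in the RefSeq table (GRCh38.p14). They are shown for the 140 bases before each transcription start because the members differed. HIST1H1B, HIST1H1C, HIST1H1E and, less stably, H1FX were called higher in the knockout after differentiation. HIST1H1D was not called, and HIST1H1A was nearly silent. Capitals mark the H1 box AAACACA, the CCAAT box CCAAT and the TATA box TATAAA or TATATA. All of these were searched on both strands, and overlapping TATA matches are drawn as 1 run.
HIST1H1B: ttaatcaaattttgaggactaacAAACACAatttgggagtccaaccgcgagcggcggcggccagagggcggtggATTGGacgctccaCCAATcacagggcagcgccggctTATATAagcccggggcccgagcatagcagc
HIST1H1C: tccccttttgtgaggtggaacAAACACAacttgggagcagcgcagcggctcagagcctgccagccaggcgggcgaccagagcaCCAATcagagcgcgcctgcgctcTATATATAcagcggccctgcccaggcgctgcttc
HIST1H1E: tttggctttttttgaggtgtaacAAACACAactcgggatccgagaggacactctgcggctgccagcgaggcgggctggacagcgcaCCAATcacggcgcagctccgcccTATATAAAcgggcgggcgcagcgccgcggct
HIST1H1D: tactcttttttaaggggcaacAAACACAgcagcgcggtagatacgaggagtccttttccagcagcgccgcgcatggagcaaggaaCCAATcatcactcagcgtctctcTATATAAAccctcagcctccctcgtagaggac
HIST1H1A: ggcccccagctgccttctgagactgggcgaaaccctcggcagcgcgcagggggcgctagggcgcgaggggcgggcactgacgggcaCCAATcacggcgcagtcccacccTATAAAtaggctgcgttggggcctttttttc
H1FX: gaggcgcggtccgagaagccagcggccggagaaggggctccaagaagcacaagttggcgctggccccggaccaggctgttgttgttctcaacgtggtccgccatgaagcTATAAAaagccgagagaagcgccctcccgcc
These windows lie at chr6:27867589-27867728 (- strand, HIST1H1B), chr6:26056471-26056610 (- strand, HIST1H1C), chr6:26156189-26156328 (+ strand, HIST1H1E), chr6:26234988-26235127 (- strand, HIST1H1D), chr6:26017788-26017927 (- strand, HIST1H1A) and chr3:129316287-129316426 (- strand, H1FX).

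Counted from the transcription start, the H1 box lay between positions -119 and -111 in HIST1H1B, HIST1H1C, HIST1H1D and HIST1H1E, and these letters were not in the windows of HIST1H1A and H1FX. HIST1H1A held a CCAAT box and a TATA box at about the places they take in the other HIST1H1 genes, and H1FX held a TATA box. Over the same 140-base window, 2.53% of the 35116 promoters in the table held the H1 box on either strand, 22.6% the CCAAT box and 7.65% the TATA box. Only 9 promoters, or 0.0256%, held all 3 on the gene's strand, and 4 of these 9 belong to HIST1H1B, HIST1H1C, HIST1H1D and HIST1H1E. From 250 bases before to 50 bases after the start, H1FX had 32 CpG pairs, HIST1H1E 25, HIST1H1A 17, HIST1H1C 15, HIST1H1B 13 and HIST1H1D 11, against a median of 14 over all promoters. The GC box GGGCGG, also searched on both strands and drawn but not capitalised, was found in HIST1H1A, HIST1H1B and HIST1H1E and in 35.9% of all promoters in that window. DNA methylation and MBD2 binding were not measured in these libraries.

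**Figure D1:**
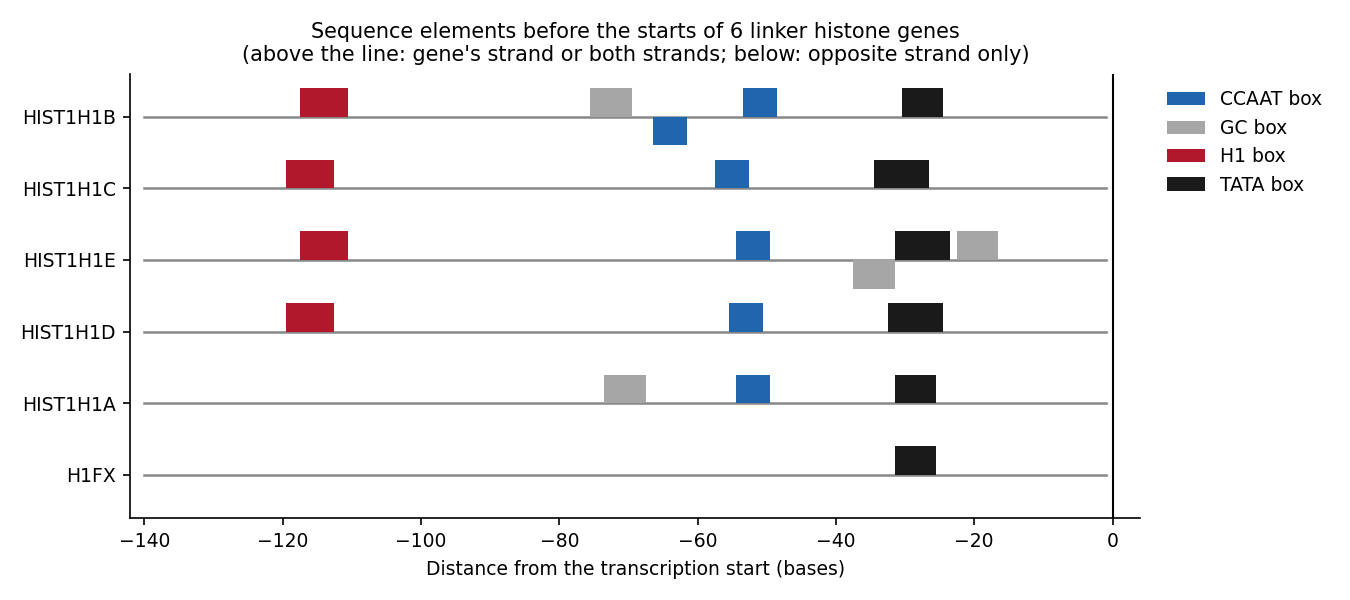
Elements found in the 140 bases before the transcription start of 6 linker histone genes, drawn to scale along the distance from the start in bases. Boxes above a line lie on the gene's strand or on both strands and boxes below it on the opposite strand only; the red H1 box, between positions -119 and -111 from the start, is seen in HIST1H1B, HIST1H1C, HIST1H1E and HIST1H1D.

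MBD2 itself, which was targeted, averaged 15.8 ± 1.1 CPM in knockout after and 59.6 ± 1.7 CPM in control after (SD, n = 3 each), and 22.4 ± 2.4 CPM in knockout before and 77.2 ± 1.7 CPM in control before (SD, n = 3 each). CPM are counts divided by the TMM-scaled library size. On the log2 scale it fell by 1.91 after differentiation and fell by 1.79 before it, and its transcripts remained detectable in the knockout libraries. The libraries held 7667997 to 14047498 counts. All 10 erythroid markers were expressed, with a summed level of 16490 to 16789 CPM in knockout after, 8214 to 8743 in control after, 7160 to 8606 in knockout before and 6703 to 7219 in control before. Markers of other lineages were low but moved with the groups. The 7 mast cell and basophil genes summed to 9.25 to 12.4 CPM in knockout after, 44.8 to 50.8 in control after, 36.4 to 43.4 in knockout before and 120 to 142 in control before, with no count of CLC in either knockout group and none of FCER1A in control before. The 7 neutrophil and monocyte genes summed to 3.44 to 4.78 CPM in knockout after, 2.95 to 4.22 in control after, 17.5 to 22 in knockout before and 6.66 to 8.19 in control before. Megakaryocyte genes summed to 11.7 to 12.8 CPM in knockout after, 11.3 to 13.9 in control after, 36.1 to 56.8 in knockout before and 26.2 to 29.8 in control before, with no count of PPBP in any group. The 6 lymphoid genes summed to 22.2 to 28.4 CPM in knockout after and 24.3 to 27.0 in control after. They summed to 37.5 to 40.8 CPM in knockout before and 31.4 to 36.3 in control before, with no count of CD3E in any group. Stromal and endothelial genes summed to at most 1.80 CPM. Ribosomal RNA genes took 1.68% to 2.74% of counts in knockout after, 0.562% to 1.05% in control after, 0.842% to 1.29% in knockout before and 0.394% to 1.08% in control before. The part of these shifts in the changes of the linker histones was not tested, and in bulk RNA fewer cells of a type cannot be told apart from less RNA per cell.

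**Figure D2:**
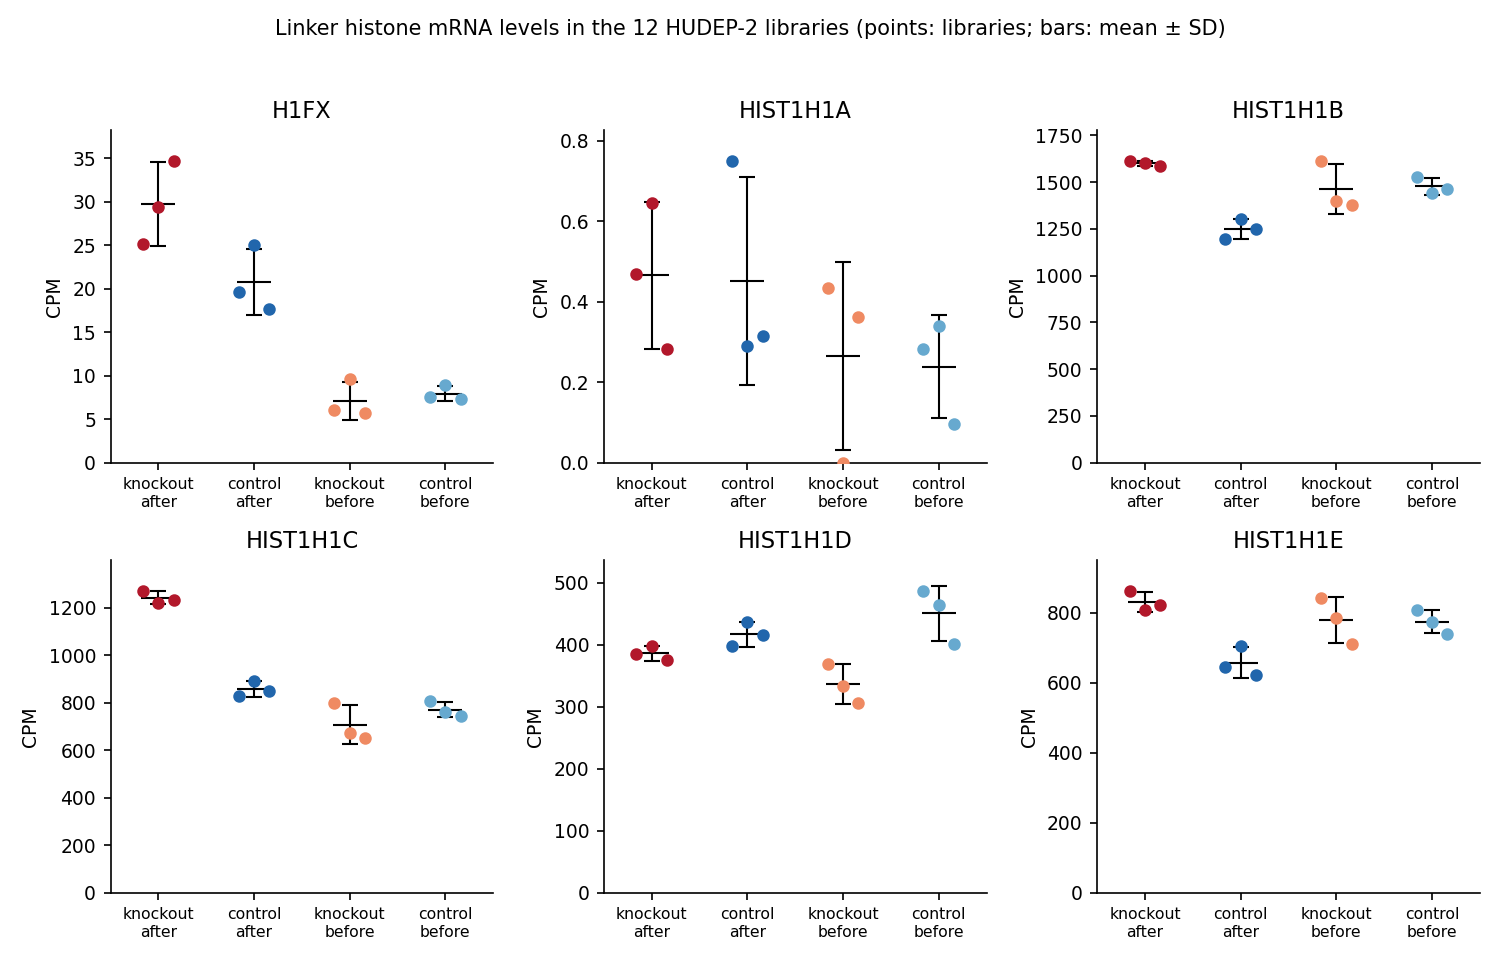
Level of each linker histone gene in CPM in the 12 libraries, in knockout after, control after, knockout before and control before; points are libraries and black bars the mean ± SD (n = 3). H1FX ran between 25.1 and 34.7 CPM in knockout after and between 7.33 and 8.94 CPM in control before, while HIST1H1A stayed at or below 0.750 CPM in every library.

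H1FX, the replication-independent member (chromosome 3, 129314771-129316277, - strand, hg38), had 25.1, 29.4 and 34.7 CPM in knockout after, 19.6, 25.1 and 17.7 CPM in control after, 6.06, 9.61 and 5.70 CPM in knockout before, and 7.60, 8.94 and 7.33 CPM in control before. Every library after differentiation lay above every library before it, the groups after differentiation met at about 25.1 CPM, and the groups before it overlapped. In edgeR's quasi-likelihood test with Benjamini-Hochberg adjustment over all 17175 genes, H1FX rose with differentiation in knockout cells (log2 fold change 2.06 ± 0.19 SE, adjusted p = 7.04e-08) and in control cells (1.38 ± 0.18, adjusted p = 1.12e-05). The knockout effect was 0.50 ± 0.17 after differentiation (adjusted p = 0.0278) and -0.18 ± 0.20 before it, which was not called (adjusted p = 0.627), and the difference between these was not called either (0.68 ± 0.26, adjusted p = 0.103). The call after differentiation was lost without control after replicate 1 (0.46, adjusted p = 0.0876) or 3 (0.40, 0.109), without knockout after replicate 2 (0.51, 0.0647) or 3 (0.38, 0.131), and with library sizes in place of TMM (0.35, 0.129). The antisense gene H1FX-AS1 shares 345 of the 1507 exon bases of H1FX, which the counting, stated without a strand option, cannot tell apart. H1FX-AS1 itself had 16 to 33 counts per group.

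HIST1H1A, the gene of H1.1 (chromosome 6, 26017085-26017732, - strand), had 4, 6 and 2 counts in knockout after, 8, 4 and 3 in control after, 6, 0 and 4 in knockout before, and 3, 5 and 1 in control before. The groups overlapped at both stages, and the highest library stood at 0.750 CPM. The library with 0 counts, knockout before replicate 2, allows up to 3 counts, or 0.269 CPM. Too few counts were present for a test of this gene.

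The other HIST1H1 members were the most abundant. Per kilobase of exon, HIST1H1B (H1.5) stood at 2350 ± 21 CPM in knockout after, 1836 ± 78 in control after, 2149 ± 194 in knockout before and 2171 ± 65 in control before (SD, n = 3 each). HIST1H1C (H1.2), HIST1H1E (H1.4) and HIST1H1D (H1.3) followed, at 1935 ± 42, 1259 ± 44 and 580.2 ± 17.8 CPM per kb in knockout after. The exon lengths of HIST1H1B, HIST1H1C, HIST1H1D and HIST1H1E in the files are multiples of 3, so that these are coding lengths and reads from their untranslated ends were not counted. Their coding sequences share 77.3% to 81.0% of aligned bases with each other, but no 50-base window of any of them was found in another gene's transcript.

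HIST1H1C (26055787-26056428, - strand) had 1273, 1222 and 1233 CPM in knockout after, 827, 893 and 851 CPM in control after, 801, 673 and 653 CPM in knockout before, and 807, 763 and 745 CPM in control before. Knockout after stood above all other libraries, control after lay next and above control before in every library, and the groups before differentiation overlapped. HIST1H1B (chromosome 6, 27866849-27867529, - strand) had 1613, 1602 and 1585 CPM in knockout after, 1198, 1304 and 1249 CPM in control after, 1615, 1399 and 1376 CPM in knockout before, and 1528, 1442 and 1465 CPM in control before. Control after was the lowest group, below every other library, and knockout after overlapped knockout before through knockout before replicate 1. HIST1H1E (26156391-26157050, + strand) had 863, 807 and 822 CPM in knockout after, 645, 706 and 623 CPM in control after, 842, 784 and 710.0 CPM in knockout before, and 808, 775 and 741 CPM in control before. Control after was again the lowest group, and the other 3 groups overlapped. HIST1H1D (26234268-26234933, - strand) had 385, 399 and 376 CPM in knockout after, 398, 437 and 415 CPM in control after, 370, 334 and 306 CPM in knockout before, and 488, 464 and 401 CPM in control before. For HIST1H1D the knockout libraries lay below the control libraries before differentiation, and the groups met at 398 to 399 CPM after it.

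After differentiation, 4 of the 5 tested members were higher in the knockout and 0 lower, where 33.1% of all tested genes were called, 16.8% higher and 16.3% lower. The members' median log2 fold change was 0.36, against -0.01 over all tested genes. HIST1H1C rose by 0.54 ± 0.08 (edgeR adjusted p = 3.51e-05), HIST1H1B by 0.36 ± 0.07 (adjusted p = 9.45e-04) and HIST1H1E by 0.34 ± 0.07 (adjusted p = 0.00200), beside H1FX. HIST1H1D stood at -0.11 ± 0.08 and was not called (adjusted p = 0.335). With library sizes in place of TMM the median of all genes moved to -0.17, HIST1H1D was called lower (-0.27, adjusted p = 0.00946), and HIST1H1C (0.38), HIST1H1B (0.20) and HIST1H1E (0.18, adjusted p = 0.0491) were still called higher.

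Before differentiation, 0 of the 5 tested members were higher in the knockout and 1 lower, where 17.2% of all tested genes were called, 9.07% higher and 8.15% lower. The member that fell was HIST1H1D, by 0.42 ± 0.08 on the log2 scale (edgeR adjusted p = 0.00140). HIST1H1B (-0.01 ± 0.07, adjusted p = 0.922), HIST1H1C (-0.12 ± 0.08, 0.319) and HIST1H1E (0.01 ± 0.07, 0.962) were not called. Without knockout before replicate 1, the library highest in all 3 of these genes within its group, HIST1H1C was called lower (-0.23, adjusted p = 0.0327).

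With differentiation, 3 of the 5 tested members were higher in knockout cells and 0 lower, where 55.7% of all tested genes were called, 28.0% higher and 27.7% lower. HIST1H1C rose by 0.81 ± 0.08 (edgeR adjusted p = 1.34e-07) beside H1FX. HIST1H1D was called at 0.20 ± 0.08 (adjusted p = 0.0478), but this call was lost under 13 of the 18 alternatives tried. It held without control before replicate 1 or 3, without knockout before replicate 1, without control after replicate 1 and with the replicate block, and its value ran from 0.02 with library sizes to 0.29 without knockout before replicate 1. HIST1H1B (0.13 ± 0.07, adjusted p = 0.138) and HIST1H1E (0.09 ± 0.07, 0.300) were not called, though HIST1H1B was called higher without knockout before replicate 1 (0.22, adjusted p = 0.0130).

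In control cells, 1 of the 5 tested members was higher after differentiation and 2 lower, where 43.8% of all tested genes were called, 21.5% higher and 22.3% lower. The member that rose was H1FX, and the 2 that fell were HIST1H1B, by 0.24 ± 0.07 (edgeR adjusted p = 0.0116), and HIST1H1E, by 0.24 ± 0.07 (adjusted p = 0.0165). HIST1H1C (0.15 ± 0.08, adjusted p = 0.123) and HIST1H1D (-0.11 ± 0.08, 0.285) were not called. The HIST1H1B call was lost without control after replicate 1 (-0.21, adjusted p = 0.0645). The HIST1H1E call was lost without control before replicate 1 (-0.21, 0.0686) or 2 (-0.24, 0.0518) and without control after replicate 1 (-0.22, 0.0634) or 3 (-0.20, 0.0752).

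**Figure D3:**
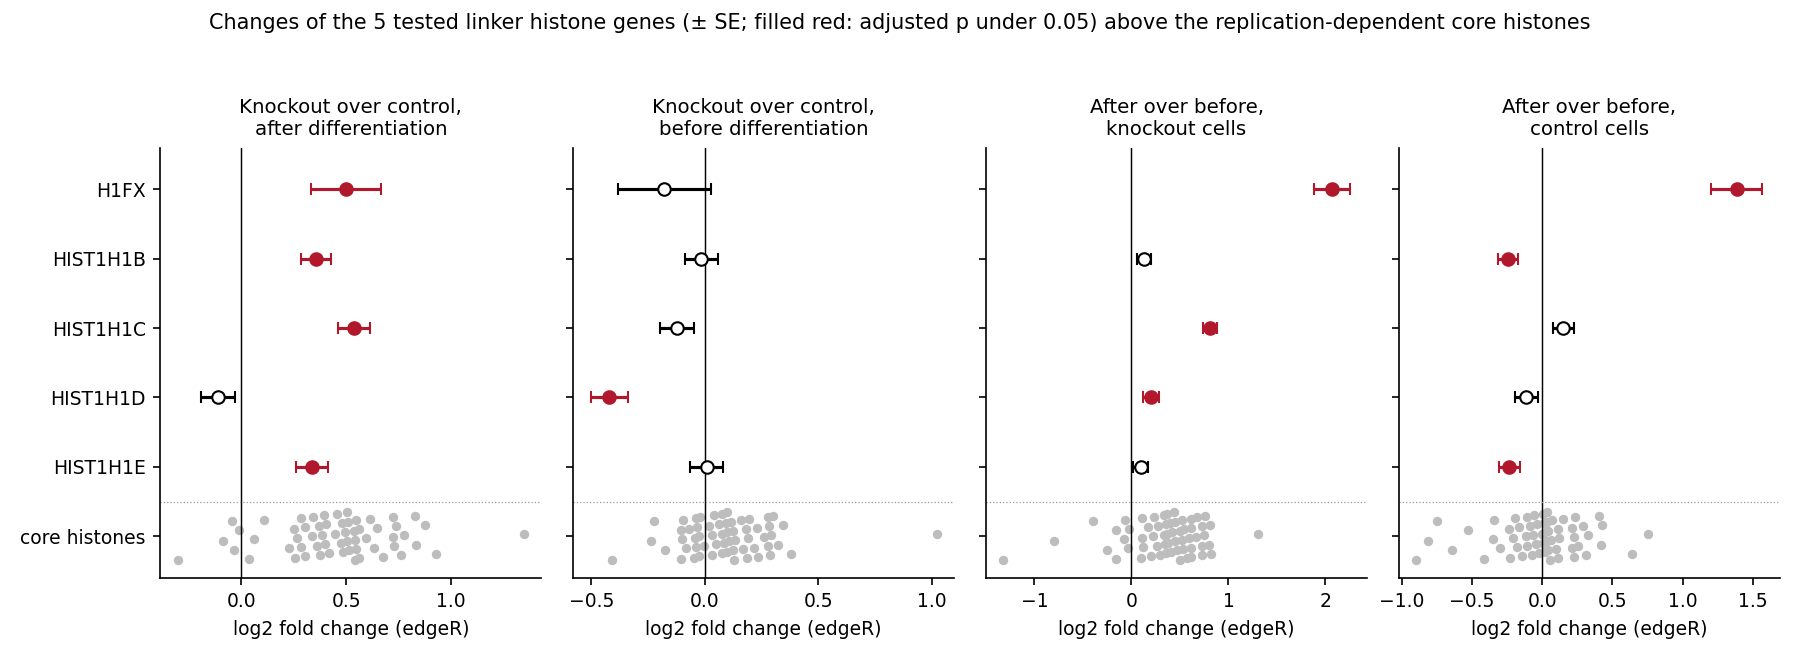
Log2 fold changes of the 5 tested linker histone genes in the 4 comparisons, with edgeR standard errors, above the 59 tested replication-dependent core histone genes as grey points; each panel has its own axis, and filled red marks an adjusted p under 0.05. After differentiation HIST1H1B, HIST1H1C and HIST1H1E lie at 0.34 to 0.54 among the core histones, HIST1H1D lies at -0.11, and H1FX lies to the right of the other members with differentiation in both knockout and control cells.

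The knockout effect differed between the stages for 3 of the 5 tested members: 3 were higher after differentiation than before it and 0 lower, where 6.28% and 6.68% of all tested genes were called in these directions. The difference of the log2 knockout effects was 0.66 ± 0.11 for HIST1H1C (edgeR adjusted p = 6.94e-04), 0.37 ± 0.10 for HIST1H1B (adjusted p = 0.0224) and 0.33 ± 0.11 for HIST1H1E (adjusted p = 0.0487). For HIST1H1D it was 0.31 ± 0.12 and was not called (adjusted p = 0.0871). The HIST1H1B call was lost without control before replicate 1 (0.36, adjusted p = 0.0535), knockout before replicate 3 (0.34, 0.0503), control after replicate 1 (0.35, 0.0657) or knockout after replicate 1 (0.36, 0.0541), and the HIST1H1E call was lost in 9 of the 12 fits that left out a library, holding without control before replicate 3, knockout before replicate 1 or control after replicate 2. With library sizes in place of TMM 1 of the 5, HIST1H1C, was still called, and the calls of HIST1H1B (0.24, adjusted p = 0.0984) and HIST1H1E (0.19, 0.191) were lost. The HIST1H1E call was also lost with DESeq2-style size factors (0.32, 0.0545) and without the filter on low counts (0.30, 0.0868). HIST1H1D was called without control before replicate 3 (0.40, 0.0250) or knockout before replicate 1 (0.40, 0.0267), and H1FX without knockout before replicate 2 (0.95, 0.0144). The knockout effects and the differentiation changes share libraries, so these values are not independent of each other.

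Ratios within a library do not depend on how libraries are scaled. Per kilobase, HIST1H1C stood at 0.823 ± 0.014 of HIST1H1B in knockout after, 0.727 ± 0.005 in control after, 0.513 ± 0.012 in knockout before and 0.554 ± 0.013 in control before (SD, n = 3 each), and the 4 groups did not overlap. HIST1H1D stood at 0.247 ± 0.007, 0.341 ± 0.002, 0.235 ± 0.008 and 0.312 ± 0.028 of HIST1H1B in knockout after, control after, knockout before and control before (SD, n = 3 each). The knockout libraries, from 0.228 to 0.255, all lay below the control libraries, from 0.280 to 0.343. HIST1H1E kept a mean of 0.536 to 0.549 of HIST1H1B in the 4 groups, which overlapped. No test is given for these ratios, because the members were chosen with earlier results known. An exact permutation test of 3 libraries against 3 also cannot give a two-sided p below 0.1.

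The shares of the genes shifted with these ratios. Of the summed level per kilobase of the 6 genes, HIST1H1B took 38.2% ± 0.4 in knockout after, 38.2% ± 0.4 in control after, 43.5% ± 0.7 in knockout before and 41.5% ± 1.0 in control before (SD, n = 3 each). HIST1H1C took 31.5% ± 0.3 in knockout after, 27.8% ± 0.2 in control after, 22.3% ± 0.5 in knockout before and 23.0% ± 0.05 in control before. HIST1H1E took 20.5% ± 0.4 in knockout after, 20.7% ± 0.7 in control after, 23.9% ± 0.8 in knockout before and 22.4% ± 0.2 in control before. HIST1H1D took 9.44% ± 0.33 in knockout after, 13.02% ± 0.14 in control after, 10.2% ± 0.2 in knockout before and 12.9% ± 0.9 in control before. H1FX took 0.322% ± 0.056 in knockout after, 0.286% ± 0.041 in control after, 0.0964% ± 0.0319 in knockout before and 0.101% ± 0.012 in control before. The summed level was 6145 ± 95 CPM per kb in knockout after, 4808 ± 215 in control after, 4943 ± 457 in knockout before and 5229 ± 215 in control before.

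**Figure D4:**
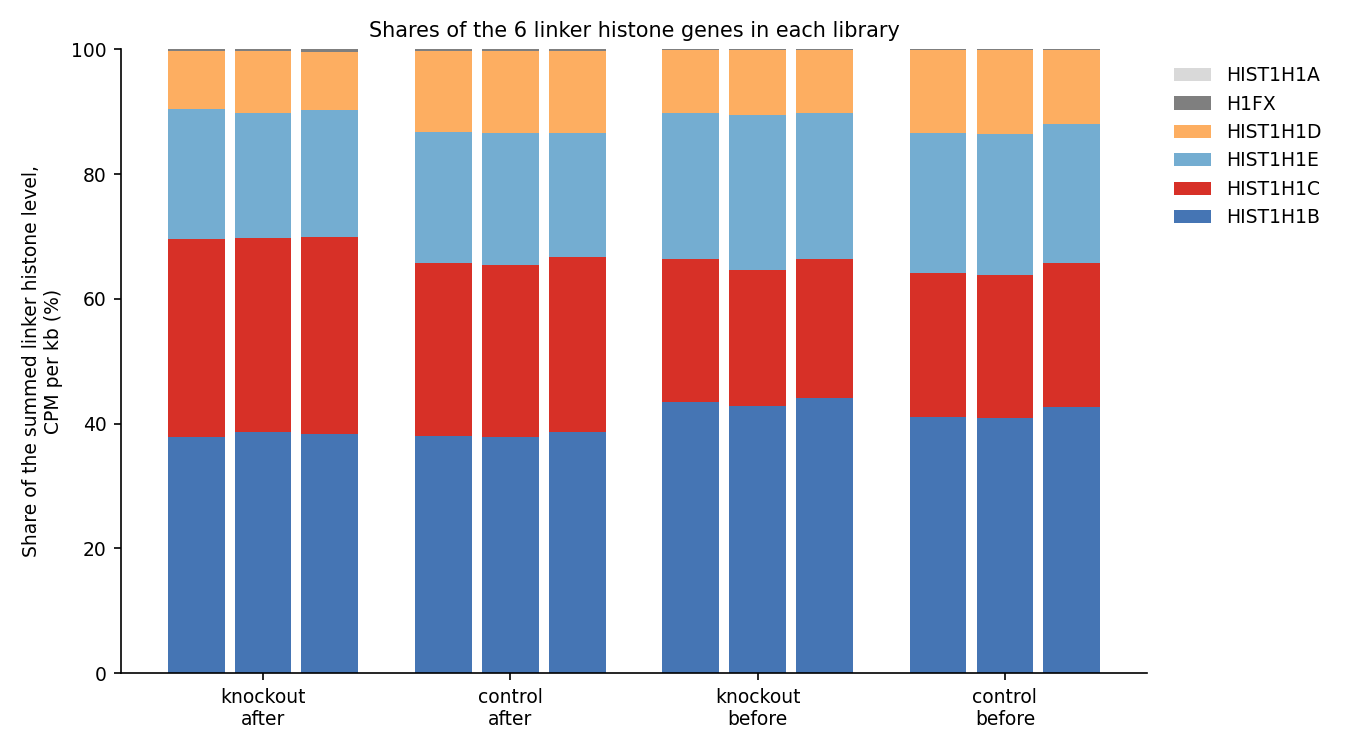
Share of each linker histone gene in the summed CPM per kilobase of the 6 genes, in percent, with 1 bar for each of the 12 libraries. HIST1H1C (red) takes 31.5% in knockout after and 27.8% in control after, against 22.3% in knockout before and 23.0% in control before, and HIST1H1D (orange) is narrower in the knockout bars at both stages.

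Among 4 linker histone genes of germ cells, 1 could be tested. HIST1H1T, the testis-specific H1.6 gene, had 6.46 ± 0.42 CPM in knockout after, 2.47 ± 0.38 in control after, 6.77 ± 0.94 in knockout before and 6.77 ± 2.38 in control before (SD, n = 3 each). It was higher in the knockout after differentiation (log2 fold change 1.405 ± 0.25 SE, edgeR adjusted p = 3.68e-04) and fell by 1.50 ± 0.24 with differentiation in control cells (adjusted p = 8.28e-05). HILS1 and H1FNT, of spermatids, had no count in any library, and H1FOO, of oocytes, none in 3 of the groups.

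The replication-dependent core histones, whose mRNAs are made and processed like those of HIST1H1B to HIST1H1E, were listed as 65 genes, of which 59 were tested. After differentiation 50 of them were higher in the knockout and 1, HIST4H4, lower, where 16.8% and 16.3% of all tested genes were called in these directions, and their median log2 fold change was 0.48. HIST2H2BE averaged 310.5 ± 12.9 CPM in knockout after and 169 ± 3 in control after (SD, n = 3 each), a log2 fold change of 0.88 ± 0.07 (edgeR adjusted p = 7.11e-08), and HIST1H2AB averaged 170.4 ± 13 CPM in knockout after and 103 ± 4 in control after (0.72 ± 0.07, adjusted p = 5.70e-07). Before differentiation 9 were higher and 2, HIST1H4F and HIST1H4L, lower, with a median of 0.09, where 9.07% and 8.15% of all tested genes were called. With differentiation 42 were higher and 4 lower in knockout cells (median 0.40), where 28.0% and 27.7% of all tested genes were called. In control cells 12 were higher and 13 lower (median 0.01), where 21.5% and 22.3% of all tested genes were called, so that the share of core histones called was near that of all genes. The knockout effect was larger after differentiation than before it for 32 and smaller for 1, HIST4H4, where 6.28% and 6.68% of all tested genes were called. Scaled by library sizes, 37 were higher and 2 lower in the knockout after differentiation (median 0.32, against -0.17 over all tested genes). With differentiation, 31 were then higher and 10 lower in knockout cells (median 0.21, against -0.16). In control cells 8 were then higher and 15 lower (median -0.035, against -0.044). The knockout effect was then larger after differentiation for 19 and smaller for 1 (median 0.27, against -0.15). Several members of this list, such as HIST2H4A with HIST2H4B and HIST2H2AA3 with HIST2H2AA4, are near-identical copies between which reads cannot be assigned with certainty.

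A list of 6 core histone genes that also give polyadenylated mRNAs in differentiated cells lies within the 59 above. In the knockout after differentiation 5 of the 6 were higher and 0 lower (median 0.45), among them HIST2H2BE and HIST1H2BK. Over all tested genes 16.8% were called higher and 16.3% lower. With differentiation in knockout cells 6 of 6 were higher (median 0.60), where 28.0% of all tested genes were called higher. HIST1H2BK averaged 940.3 ± 41.7 CPM in knockout after and 562 ± 54 in knockout before (SD, n = 3 each). In control cells 1 of the 6, HIST1H2BK, was higher after differentiation, where 21.5% of all tested genes were called higher. Scaled by library sizes, 3 of the 6 were higher in the knockout after differentiation (median 0.30, against -0.17 over all tested genes). Of 8 tested genes listed as replication-independent histone variants, 2 were higher and 0 lower in the knockout after differentiation. Over all tested genes 16.8% and 16.3% were called. The 2 were CENPA of the centromere (0.47 ± 0.10, edgeR adjusted p = 0.00107) and H2AFJ (0.33 ± 0.10, adjusted p = 0.0201). Before differentiation 0 were higher and 1 lower, where 9.07% and 8.15% of all tested genes were called. It was H3F3B, of H3.3, which fell by 0.41 ± 0.06 (edgeR adjusted p = 1.70e-04). Scaled by library sizes, the count of variants in the knockout after differentiation became 1 higher and 3 lower (median -0.10, against -0.17 over all tested genes). H2AFX, the variant phosphorylated at DNA breaks, rose with differentiation by 1.12 ± 0.14 in knockout cells and by 1.09 ± 0.14 in control cells.

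Genes that make and process replication-dependent histone mRNA were listed as 17, all tested. In the knockout after differentiation 3 were higher and 4 lower, with a median log2 fold change of -0.08. Over all tested genes 16.8% were called higher and 16.3% lower, so these counts were near the share of all genes. Scaled by library sizes, 2 of the 17 were higher and 8 lower (median -0.23, against -0.17 over all tested genes). Before differentiation 0 were called by edgeR, where 17.2% of all tested genes were called. DESeq2 called 0 of the 17, and 2 had an unadjusted edgeR p under 0.05. LSM11 of the U7 particle averaged 35.8 ± 1.0 CPM in knockout after and 21.5 ± 2.0 in control after (SD, n = 3 each; 0.74 ± 0.10, edgeR adjusted p = 1.79e-05), and SLBP, which binds the stem-loop, 136 ± 1 CPM in knockout after and 118 ± 4 in control after (0.21 ± 0.06, adjusted p = 0.00890). NPAT, which activates histone transcription at histone locus bodies, fell by 0.21 ± 0.07 (adjusted p = 0.0376).

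Of 26 S phase genes, 15 were higher and 3 lower in the knockout after differentiation (median 0.23), where 16.8% and 16.3% of all tested genes were called. Before differentiation 6 were higher and 2 lower (median 0.12), where 9.07% and 8.15% of all tested genes were called. E2F2, an activator of S phase genes, averaged 61.9 ± 5.7 CPM in knockout after and 18.9 ± 2.0 in control after (SD, n = 3 each), a log2 fold change of 1.70 ± 0.10 (edgeR adjusted p = 7.50e-10). The cyclin E gene CCNE1 (0.87 ± 0.07, adjusted p = 7.93e-08), the ribonucleotide reductase gene RRM2 (0.64 ± 0.06, adjusted p = 3.52e-07) and the helicase gene MCM2 (0.59 ± 0.08, adjusted p = 2.37e-05) also rose. With library sizes in place of TMM the count after differentiation became 5 higher and 6 lower, so the counts of this list depend on the scaling. Its median moved from 0.23 to 0.08, while the median of all tested genes moved from -0.01 to -0.17. Whether the share of cells in S phase differed between the groups was not measured.

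Of 6 genes of proteins that carry or unload linker histones, 2 were higher and 1 lower in the knockout after differentiation. Over all tested genes 16.8% were called higher and 16.3% lower. Scaled by library sizes, 0 of the 6 were higher and 4 lower (median -0.23, against -0.17 over all tested genes). Before differentiation 0 of the 6 were called by edgeR or DESeq2, and 0 had an unadjusted edgeR p under 0.05, where edgeR called 17.2% of all tested genes. NASP, a chaperone that binds H1, averaged 308 ± 12 CPM in knockout after and 326 ± 18 in control after (SD, n = 3 each) and was not called (-0.08 ± 0.06, edgeR adjusted p = 0.330). PTMA, of prothymosin alpha, fell by 0.24 ± 0.06 (adjusted p = 0.00669). Of 10 HMG genes, whose proteins share linker DNA with H1, 3 were higher and 3 lower in the knockout after differentiation. Over all tested genes 16.8% and 16.3% were called in these directions. Scaled by library sizes, 0 of the 10 were higher and 5 lower (median -0.20, against -0.17 over all tested genes). Before differentiation 0 were higher and 4 lower, where 9.07% and 8.15% of all tested genes were called. HMGA2 fell at both stages, by 1.31 ± 0.20 after differentiation (adjusted p = 8.74e-05) and by 0.72 ± 0.16 before it (adjusted p = 0.00398), and HMGB2 rose after differentiation by 0.31 ± 0.08 (adjusted p = 0.00468). Of 6 genes known to act in erythroid nuclear condensation, 3 were higher and 1 lower in the knockout after differentiation, beside the same 16.8% and 16.3%. The 3 were MXI1 (1.15 ± 0.07, edgeR adjusted p = 8.66e-10), XPO7 (0.62 ± 0.06, adjusted p = 6.64e-07) and RIOK3 (0.66 ± 0.07, adjusted p = 1.05e-06), and KAT2A fell by 0.60 ± 0.09 (adjusted p = 4.66e-05). Scaled by library sizes, 3 of these 6 genes were higher and 2 lower (median 0.25, against -0.17 over all tested genes).

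The genes most like each member were sought among 9602 protein-coding genes by the root mean square difference of log2 CPM over the 12 libraries, after removing each gene's mean. For HIST1H1B the nearest were the histone H4 gene HIST1H4C (0.045), HIST1H1E (0.048) and YTHDC1, of a nuclear reader of methylated adenosine (0.056). For HIST1H1E they were HIST1H4C (0.047), HIST1H1B (0.048) and YTHDC1 (0.069), so that HIST1H1B and HIST1H1E were among each other's 3 nearest genes. HIST1H4C had 629 CPM in knockout after, 482 in control after, 583 in knockout before and 594 in control before, with control after lowest, as for these 2 members. For HIST1H1C the nearest were CNOT10 (0.058), NBR1 (0.060) and C9orf72 (0.066), and for HIST1H1D ZNF100 (0.080), TATDN1 (0.081) and CYB5A (0.082), none of them a histone gene. For H1FX they were SLC7A5 (0.17), RASD1 (0.18) and PPDPF (0.19). These differences are to be read beside each member's own root mean square spread around its mean. That spread was 0.90 for H1FX, 0.32 for HIST1H1C, 0.18 for HIST1H1D, 0.14 for HIST1H1B and 0.14 for HIST1H1E.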

How the data were processed

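The authors deposited 1 table of raw fragment counts per gene for the 12 libraries. Per the file header, counting used featureCounts 1.4.6-p4 with GENCODE 22 on GRCh38 (hg38), paired ends, and no strand or multi-mapping option. The submitters' processing notes name Trimmomatic, FastQC, Subread 1.6.2, featureCounts 1.2.6 and edgeR 3.18.1, so the counter's version differs between the sources. Libraries held 7667997 to 14047498 counts.

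Counts were analysed in R 4.3.3 with edgeR 4.0.16: filterByExpr over the 4 groups, TMM scaling, a group-means model of all 12 libraries, quasi-likelihood F-tests (two-sided) and Benjamini-Hochberg adjustment over 17175 genes, threshold 0.05. Fold changes are log2 values, and their standard errors are the log2 fold change divided by the square root of F. DESeq2 1.42.0 was an alternative. The procedure was checked on simulated counts. A further gene named by the rule for members is not reported here. The members and gene lists were chosen with earlier results of these data known, so counts over lists are descriptions. From each list at most 4 genes per comparison were eligible to be named, those with the smallest adjusted p, plus SLBP, NPAT and NASP; genes named because a count was 5 or fewer were chosen after their values were seen. Same-numbered replicates were not paired by the labels. Promoters came from RefSeq (GRCh38.p14) and transcript ends from GENCODE 29, read and searched with Python 3.11.15, and figures were drawn with matplotlib 3.10.9.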

Additional observations from a re-analysis of the deposited data

Results flagged for a closer look

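For 3 linker histone genes the knockout effect differed between the stages by the test of the difference itself (edgeR's quasi-likelihood test with Benjamini-Hochberg adjustment over all genes). The effect after minus before differentiation was 0.66 for HIST1H1C (adjusted p = 6.94e-04), 0.37 for HIST1H1B (adjusted p = 0.0224) and 0.33 for HIST1H1E (adjusted p = 0.0487). Of all tested genes, 6.28% were called in this direction. The HIST1H1C call held under all 17 alternatives. The HIST1H1B call was lost in 4 of the 12 fits that left out a library and with library sizes in place of TMM. The HIST1H1E call was lost in 9 of those 12 fits, with library sizes, with DESeq2-style size factors and without the filter on low counts.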

How the results depend on the processing

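Of 445 member values under alternatives, 387 kept their direction and their side of the threshold, 40 lost the call, 9 gained one and 9 changed sign, each of the last uncalled before and after. HIST1H1C, HIST1H1B and HIST1H1E kept direction and call under every alternative run in the knockout effect after differentiation, as did HIST1H1D in that before it. With library sizes in place of TMM, the share of called genes that were higher moved to 27.6%, against 50.7%, for the knockout effect after differentiation, to 35.1%, against 50.3%, for differentiation in knockout cells, and to 23.1%, against 48.5%, for the difference of the knockout effects. Under that scaling the log2 fold change was 0.35 for H1FX and -0.27 for HIST1H1D in the knockout effect after differentiation, -0.016 for HIST1H1E in that before it, 0.016 for HIST1H1D, -0.054 for HIST1H1B and -0.090 for HIST1H1E with differentiation in knockout cells, and 0.24 for HIST1H1B and 0.19 for HIST1H1E in the difference of the effects, where both calls were lost. The HIST1H1D change in knockout cells was 0.19 with DESeq2-style size factors, with only the groups compared and with DESeq2, and 0.15 without the filter. The difference of the effects was 0.32 with DESeq2-style size factors and 0.30 without the filter for HIST1H1E, whose call was lost in both, and 0.65 without the filter for H1FX, which was then called. The cause of these changes was not tested.

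Leaving out 1 library at a time, the knockout effect before differentiation ran from -0.10 to 0.023 for HIST1H1B, from -0.23 to -0.071 for HIST1H1C and from -0.063 to 0.065 for HIST1H1E, and the H1FX effect after it from 0.38 to 0.67. The change in control cells ran from -0.27 to -0.21 for HIST1H1B and from -0.29 to -0.20 for HIST1H1E, and that in knockout cells from 0.10 to 0.22 for HIST1H1B and from 0.15 to 0.29 for HIST1H1D. The difference of the effects ran from 0.56 to 0.95 for H1FX, from 0.34 to 0.47 for HIST1H1B, from 0.26 to 0.40 for HIST1H1D and from 0.28 to 0.41 for HIST1H1E. Same-numbered libraries deviated together with r from -0.02 to 0.24 and passed 0.1 in only some pairs of each comparison. Differently numbered libraries gave r from -0.23 to 0.18. Whether same-numbered libraries shared a batch was not tested. With the replicate block, calls numbered 6137 after differentiation and 3491 before it, against 5687 and 2958 without the block. The difference of the effects was then called for H1FX (0.68) and HIST1H1D (0.31). No other member call changed under the block.

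As shares of plain CPM, not divided by length, H1FX took 0.728%, 0.647%, 0.218% and 0.229% in knockout after, control after, knockout before and control before, and HIST1H1C 30.4%, 26.8%, 21.5% and 22.2%. HIST1H1B took 39.1% in knockout after, 39.04% in control after and 44.4% in knockout before, and HIST1H1E 22.2% in control before. Depth limits HIST1H1A, with 9 to 15 counts per group.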
